A study of Rattus norvegicus with 18 samples.

Results

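The organic anion, organic cation and drug transporters of the kidney were followed in 2 rat strains through 8 genes: Slc22a2, Slc22a5, Slc22a6, Slc22a8, Slco1a1, Abcc2, Abcb1a and Abcb1b. Every probe set (the short probes that together report 1 transcript) was taken whose annotation gave exactly 1 gene symbol and whose symbol was among the 8. All 8 genes were present, of 10969 genes with 1 symbol on the arrays, and they were represented by 9 probe sets, because Abcb1a had 2. Kidney total RNA came from the Dahl Salt-sensitive (S) rat, an inbred strain whose blood pressure rises with dietary salt, and from the congenic strain whose label ends in (9)x3A and which has, on S background, a part of chromosome 9 from a salt-resistant donor with a blood pressure quantitative trait locus. Each strain had 3 samples, and the RNA of a sample was read on 3 kinds of array (types A, B and C). No treatment, diet, age or sex is given in the labels, which carry a tag of its own for each sample, kept over the 3 array types. They call it a lot batch tag and do not say that it marks an animal, and the spread behind the p-values may therefore be technical. Both strains share the S background, and all RNA was of bulk kidney, in which fewer cells of a type and less RNA per cell cannot be told apart.

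The proximal tubule secretes and reabsorbs charged organic compounds in a relay of carriers. On the blood side the organic anion transporters Slc22a6 (OAT1) and Slc22a8 (OAT3) exchange dicarboxylates for drugs, toxins and metabolites, and Slc22a2 (OCT2) admits organic cations. On the urine side ATP-driven pumps such as Abcc2 (MRP2), which exports anionic conjugates, and P-glycoprotein, which exports hydrophobic drugs, complete secretion, whereas Slc22a5 (OCTN2) recovers carnitine and Slco1a1, an organic anion transporting polypeptide of the apical membrane, carries steroid conjugates. Rodents have a pair of P-glycoprotein genes, Abcb1a and Abcb1b, for what is a single gene in humans.

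In the RefSeq gene table of the GRCr8 assembly 8 of the 8 genes were matched by gene ID, and 0 lay on chromosome 9. Slc22a6 and Slc22a8 were next to each other on chromosome 1, and Slc22a2 and Abcc2 were also on chromosome 1. Slco1a1 lay between Slco1a4 and Slco1a3 on chromosome 4, Abcb1a and Abcb1b were neighbours on chromosome 4, and Slc22a5 was on chromosome 10. RefSeq promoter windows, 250 bases before to 50 bases after the start of the gene, were found for 7 of the 8 genes. 4 of these are printed: those of Slc22a8 and Abcc2, an uptake carrier and an efflux pump that both hold the letters GTTAAT, and those of the gene pair Abcb1a and Abcb1b, whose probe sets are read separately below. Each is given 5′ to 3′ on the strand of the gene, with motif matches in capitals. The motifs were searched on both strands: GTTAAT, which is one arm of the palindrome bound by the proximal tubule factor HNF1, TATAAA as a promoter box that places the start, CCAAT as the site of NF-Y, and GGGCGG as the site of Sp1 and its relatives. No matches of different motifs overlapped in these windows.
Slc22a8, GRCr8 chr1:214927034-214927333, plus strand: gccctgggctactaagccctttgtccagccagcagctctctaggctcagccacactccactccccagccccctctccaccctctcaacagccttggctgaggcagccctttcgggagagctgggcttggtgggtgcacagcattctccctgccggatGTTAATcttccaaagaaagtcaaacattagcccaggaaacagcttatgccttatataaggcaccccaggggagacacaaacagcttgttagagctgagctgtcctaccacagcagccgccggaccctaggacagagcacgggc
Abcc2, GRCr8 chr1:252613625-252613924, plus strand: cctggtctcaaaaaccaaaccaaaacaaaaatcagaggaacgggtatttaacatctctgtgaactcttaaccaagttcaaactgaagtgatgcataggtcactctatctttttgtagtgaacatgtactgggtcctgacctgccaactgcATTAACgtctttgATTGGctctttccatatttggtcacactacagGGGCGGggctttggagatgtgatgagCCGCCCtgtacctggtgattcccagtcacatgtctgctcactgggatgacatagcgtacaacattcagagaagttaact
Abcb1a, GRCr8 chr4:26397599-26397898, minus strand: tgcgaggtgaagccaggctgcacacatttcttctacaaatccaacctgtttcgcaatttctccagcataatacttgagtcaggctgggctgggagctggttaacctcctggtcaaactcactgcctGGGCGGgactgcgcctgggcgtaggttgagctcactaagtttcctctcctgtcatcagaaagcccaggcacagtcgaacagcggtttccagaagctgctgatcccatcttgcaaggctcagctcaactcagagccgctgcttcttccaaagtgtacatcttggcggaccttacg
Abcb1b, GRCr8 chr4:26279980-26280279, minus strand: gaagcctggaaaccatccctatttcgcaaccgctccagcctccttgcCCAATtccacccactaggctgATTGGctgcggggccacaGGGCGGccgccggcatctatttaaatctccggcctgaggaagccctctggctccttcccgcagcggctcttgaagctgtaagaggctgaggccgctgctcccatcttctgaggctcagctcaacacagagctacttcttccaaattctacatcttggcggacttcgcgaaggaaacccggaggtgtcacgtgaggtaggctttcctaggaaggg

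The match to GTTAAT starts at position -93 in Slc22a8 and, on the other strand, at -100 in Abcc2, counted from the start of the gene. GTTAAT was found in 2 of the 7 windows, and in 7.45% of all 33469 windows in the table. CCAAT was found in 4 of the 7, against 37.5% of all windows, GGGCGG in 4 of the 7, against 33.1%, and TATAAA in 0 of the 7, against 14.2%. The Abcb1b window held CCAAT and its reverse complement besides GGGCGG, whereas the Abcb1a window held GGGCGG alone among these motifs. A match describes letters and does not show a bound site.

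The samples numbered 1 stood apart. In both strains sample 1 differed from samples 2 and 3: the ratio of 3′ to 5′ signal of the beta-actin control probe sets, a measure of how evenly a transcript is represented along its length, was 1.17 to 1.61 in the samples numbered 1 and 2.04 to 2.66 in the other samples, over the 3 array types. The 25th percentile of signal was also higher there, for example 22.5 to 23.8 against 13.2 to 14.1 on type C. Dahl S sample 3 stood apart in blood: it was the highest of the 6 samples in all 5 tested red blood cell markers, with a summed signal of 50950 against 8881 to 17890 in the other samples. Signals are in array units, scaled by the authors to a trimmed mean near 150 on every array, and medians per array ran from 34.8 to 78.5. A probe set was tested when its mean log2 signal reached the 40th percentile of its array type, a level of 21.2 signal units on type A, 39.3 on type B and 37.7 on type C. Of the 9 transporter probe sets 7 were tested, 1 for each gene except Abcb1b, and 2 were not: the Abcb1b probe set and the second Abcb1a probe set.

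The strains were compared as congenic minus Dahl S, which asks whether exchanging the chromosome 9 segment accompanied a change in renal transcript levels. None of the 7 tested transporter probe sets passed limma's adjusted threshold of 0.05 (adjusted p = 0.9997 for each), and 0 had an unadjusted p under 0.05. Over all 15721 tested probe sets limma called 0 (0% higher and 0% lower), and 391 (2.49%) had an unadjusted p under 0.05. All 7 tested genes had the higher geometric mean in the congenic strain, with a median log2 difference of +0.15 against -0.003 over all tested probe sets. By sign alone 49.5% of tested probe sets were higher. The count of 7 fell to 4 without congenic sample 3, 5 without Dahl S sample 1 or congenic sample 2, and 6 without Dahl S sample 3. Members passed the filter by their mean over both strains, and the 2 untested probe sets had the lower floored geometric mean in the congenic strain.

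**Figure D1:**
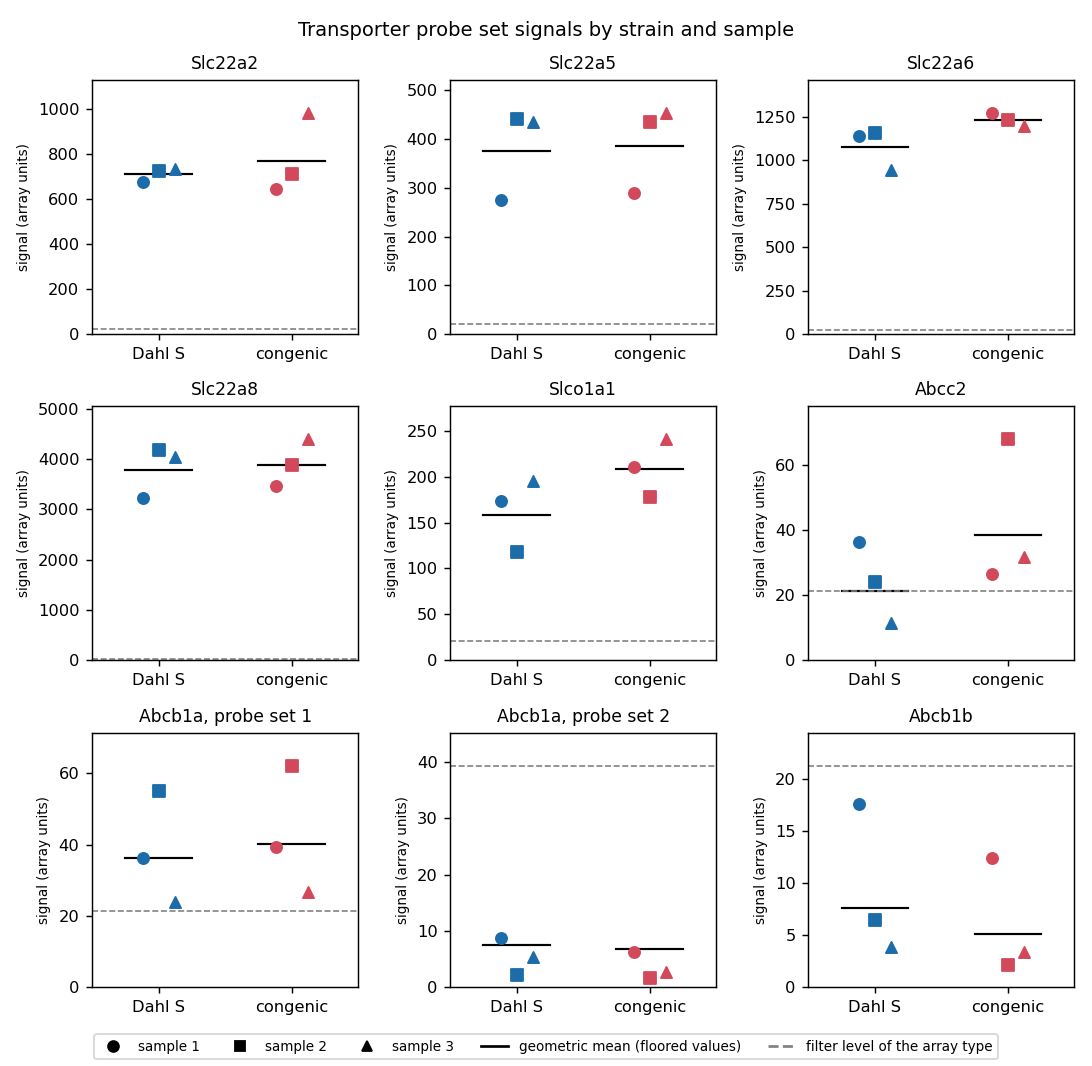
Signal in array units, on linear axes from 0, of the 9 transporter probe sets in the 3 Dahl S samples (blue) and 3 congenic samples (red); marker shapes give the sample number, black bars the geometric means after low values were raised to the floor, and dashed lines the filter level. The Slc22a6 values of the strains do not overlap, and all values of Abcb1b and of the second Abcb1a probe set lie under the dashed line.

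Slc22a6, the basolateral exchanger that takes up para-aminohippurate and many drugs, was the 1 member whose values did not overlap between the strains. It read 1140.8, 1154.2 and 940.6 in Dahl S samples 1 to 3 and 1271.8, 1229.4 and 1198.2 in congenic samples 1 to 3. All congenic samples lay above all Dahl S samples, with Dahl S sample 3 the lowest of the 6. The geometric means were 1074 and 1233, a log2 difference of +0.20 (SE 0.13, 95% interval -0.11 to 0.51, n = 3 per strain), which did not pass (limma adjusted p = 0.9997). Such a lack of overlap with the congenic values higher was seen in 3.59% of all tested probe sets. Without Dahl S sample 3, the sample with the high blood markers, the log2 difference was +0.10, and the part of those markers was not tested.

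Slc22a8, whose gene adjoins Slc22a6 and which takes up a broad range of anions on the same membrane, did not differ beyond its spread. It read 3232.1, 4175.7 and 4034.4 in Dahl S samples 1 to 3 and 3461.3, 3877.7 and 4393.3 in congenic samples 1 to 3. Values of the strains overlapped, and sample 1 was the lowest of its strain in both. The log2 difference was +0.038 (SE 0.17, 95% interval -0.34 to 0.42, limma adjusted p = 0.9997), and it was -0.077 when Dahl S sample 1 was left out and -0.049 when congenic sample 3 was. The interval leaves room for a change of that size in either direction, so equal levels are not shown.

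Slc22a2, the basolateral entry route for organic cations such as metformin and creatinine, read 673.7, 724.0 and 731.8 in Dahl S samples 1 to 3 and 643.3, 711.7 and 981.5 in congenic samples 1 to 3. Congenic sample 3 lay above the other 5, and congenic sample 1 was the lowest of the 6. The log2 difference was +0.11 (SE 0.18, 95% interval -0.30 to 0.52, limma adjusted p = 0.9997) and turned to -0.068 without congenic sample 3. Slc22a5, the sodium-dependent carnitine carrier of the brush border, read 274.4, 440.1 and 434.6 in Dahl S samples 1 to 3 and 289.3, 434.7 and 453.6 in congenic samples 1 to 3. In each strain sample 1 was low, and the other 4 samples lay between 434.6 and 453.6. The strain difference of Slc22a5 was +0.040 log2 (SE 0.25, 95% interval -0.54 to 0.62, limma adjusted p = 0.9997), and -0.18 without Dahl S sample 1, -0.048 without congenic sample 2 and -0.078 without congenic sample 3. The name of the Slc22a5 probe set carries an s suffix, as does that of Abcc2, which marks probes that may match more than 1 transcript.

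Slco1a1, an apical carrier of steroid and bile acid conjugates that is known for higher levels in male than in female rat kidney, read 173.4, 118.1 and 195.3 in Dahl S samples 1 to 3. Its congenic signals were 210.0, 177.7 and 240.4. Dahl S sample 2 was the lowest of the 6 samples, and Dahl S sample 3 lay above congenic sample 2, so the strains overlapped. The geometric means were 158.7 and 207.8, a log2 difference of +0.39 (SE 0.24, 95% interval -0.17 to 0.94), with the smallest unadjusted p of the members in the limma fit (0.147, adjusted p = 0.9997). Without Dahl S sample 2 the difference was +0.17. The 1 sex chromosome gene of the marker list on the arrays, Sry, read 1.2 to 4.9 and was under the filter level of 21.2 in all 6 samples, and a part of sex in the Slco1a1 values was not tested.

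The largest log2 difference among the members was measured in Abcc2, the apical pump for glutathione and glucuronide conjugates, near the filter level. It read 36.4, 24.0 and 11.4 in Dahl S samples 1 to 3 and 26.7, 68.0 and 31.8 in congenic samples 1 to 3. Congenic sample 2 was the highest and Dahl S sample 3 the lowest, under the filter level, while Dahl S sample 1 lay above congenic samples 1 and 3. The log2 difference of +0.85 (SE 0.60, 95% interval -0.53 to 2.22) did not pass (limma adjusted p = 0.9997), and it moved to +0.39 without Dahl S sample 3, the sample with the high blood markers, whose part was not tested. It was +0.44 without congenic sample 2 and +1.49 when both samples numbered 1 were left out. The first Abcb1a probe set was also dim but above the filter level in all 6 samples, at 36.1, 55.0 and 23.9 in Dahl S samples 1 to 3 and 39.3, 62.1 and 26.7 in congenic samples 1 to 3. The strains spanned nearly the same range, with a log2 difference of +0.15 (SE 0.48, 95% interval -0.96 to 1.26, limma adjusted p = 0.9997), which turned to -0.15 when Dahl S sample 3 was left out and -0.16 when congenic sample 2 was.

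The other P-glycoprotein probe sets were dim in all samples. Abcb1b read 17.6, 6.4 and 3.8 in Dahl S samples 1 to 3 and 12.4, 2.1 and 3.4 in congenic samples 1 to 3, all under the filter level of 21.2. The second Abcb1a probe set, on type B, read 8.7, 2.1 and 5.3 in Dahl S samples 1 to 3 and 6.2, 1.6 and 2.6 in congenic samples 1 to 3, all under 39.3. No fold is given for either, since both strains were below that level. The samples numbered 1 had the highest signal of each strain in both probe sets, as they had the highest 25th percentile of all signals. Abcb1a and Abcb1b are close copies, and cross-binding of their probes was not tested.

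**Figure D2:**
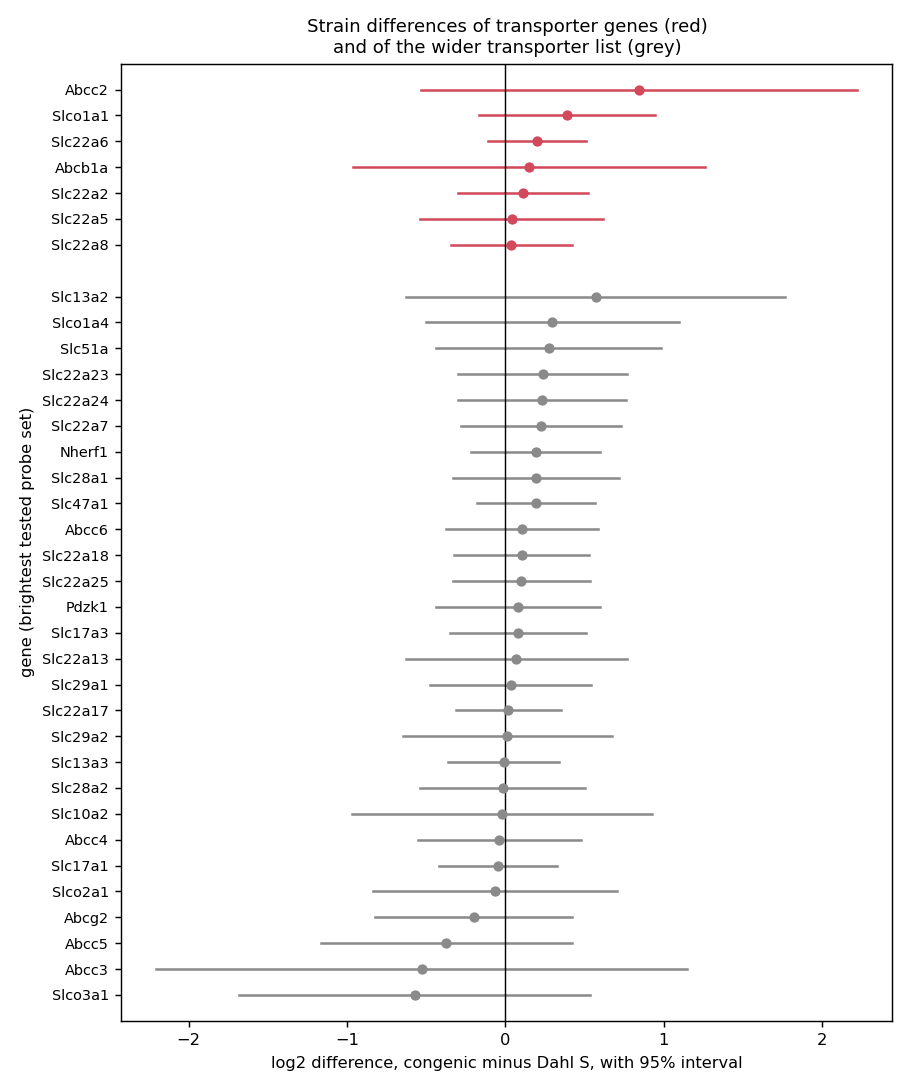
Log2 difference, congenic minus Dahl S, with its 95% interval from limma, for the brightest tested probe set of 7 transporter genes (red) and of 28 genes of the wider transporter list (grey). All 35 intervals include 0, and the Abcc2 and Abcb1a intervals are the widest of the red group.

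The dim pumps were read less precisely than the uptake carriers. The 5 uptake carriers, Slc22a2, Slc22a5, Slc22a6, Slc22a8 and Slco1a1, had SEs of 0.13 to 0.25 log2 units, whereas the apical pumps Abcc2 and Abcb1a had SEs of 0.60 and 0.48, against a median of 0.30 over all tested probe sets. Among the 6297 tested probe sets at least as bright as that of Slco1a1, 51.1% were higher in the congenic strain, with a median log2 difference of +0.005 and a median SE of 0.21. The uptake carriers thus differed by +0.038 to +0.39 where the typical probe set of such brightness had a 1 SE error of 0.21. Each SE rests on 3 samples per strain, and what set its size was not tested.

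**Figure D3:**
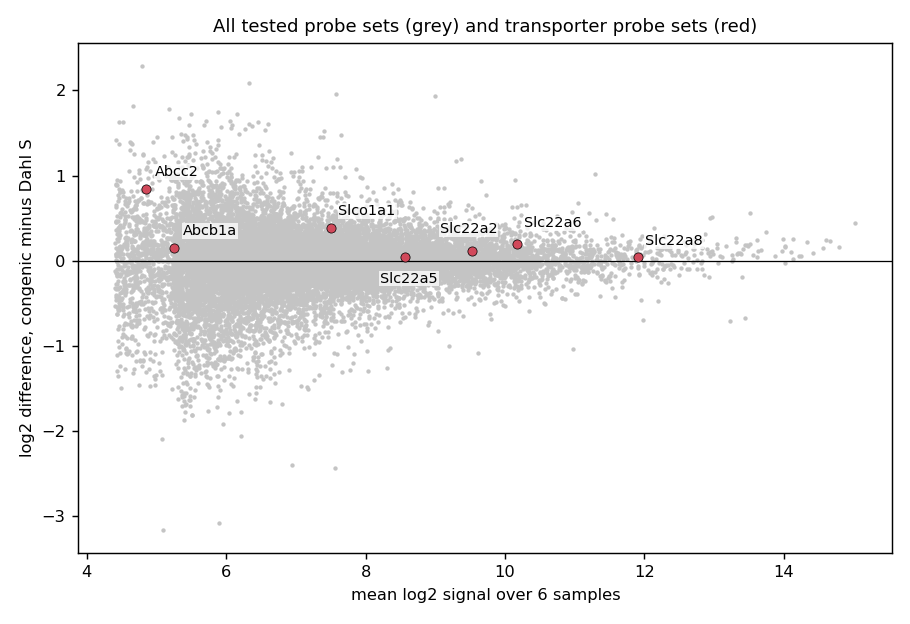
Log2 difference, congenic minus Dahl S, against mean log2 signal over the 6 samples for all 15721 tested probe sets (grey), with the 7 tested transporter probe sets in red. The red points lie within the grey cloud, and the cloud narrows to the right, where Slc22a8 and Slc22a6 are.

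The sample number went with larger differences than the strain in 3 carriers. In Slc22a2, Slc22a5 and Slc22a8 both samples numbered 1 were lower than all 4 other samples, by 0.24, 0.65 and 0.30 log2 units on average. That order was seen in 14.2% of all tested probe sets, and in 22.3% of those at least as bright as that of Slco1a1. Slc22a6 and Slco1a1 did not follow it. The lower beta-actin ratio of the samples numbered 1 moved with these 3 genes, and its part in them was not tested. With both samples numbered 1 left out all 7 tested genes again had the higher congenic mean, with a median of +0.20, and limma called 0 of them.

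**Figure D4:**
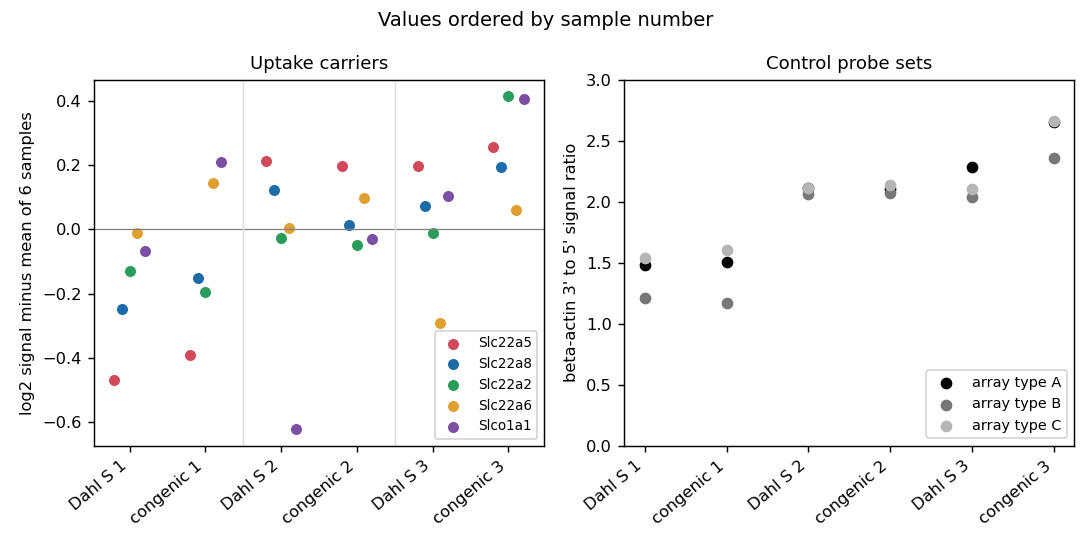
Left, log2 signal of the 5 uptake carriers in each sample minus the mean of the 6 samples, with samples ordered by number; right, the ratio of 3′ to 5′ signal of the beta-actin control probe sets on each array type. Slc22a5, Slc22a8 and Slc22a2 lie below 0 in both samples numbered 1, where the beta-actin ratio is 1.17 to 1.61 against 2.04 to 2.66 elsewhere.

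A wider list of 50 genes held other carriers and pumps of organic ions, nucleosides and bile acids, and the scaffold proteins Pdzk1 and Nherf1. Of these, 38 were on the arrays and 28 were tested, 18 higher and 10 lower in the congenic strain, with a median log2 difference of +0.073, and limma called 0 in either direction. By sign, 48.9% of all 8168 tested genes were higher. The scaffolds Pdzk1 (+0.081) and Nherf1 (+0.19), which are not carriers, were among the 18 by their brightest tested probe sets. Their other tested probe sets were lower (-0.34 and -0.049). Slc51a, also counted higher (+0.27), had another at -0.42, and Slc17a1, counted lower (-0.045), had another at +0.015. Read by brightest tested probe sets, the smallest unadjusted p values on the higher side were those of Slc47a1 (+0.19, SE 0.17) and Slc13a2 (+0.57, SE 0.52). Slc47a1 is the MATE1 exchanger that moves cations from the tubule cell into the urine, and Slc13a2 is the sodium dicarboxylate cotransporter. Slc47a1 read 2506.2, 2993.6 and 2477.9 in Dahl S samples 1 to 3 and 2703.5, 2999.2 and 3417.4 in congenic samples 1 to 3. On the lower side they were Slco3a1, a widely expressed anion carrier (-0.57, SE 0.49), and Abcc5, an exporter of cyclic nucleotides (-0.37, SE 0.35).

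2 genes of the wider list on the arrays lie on chromosome 9, the chromosome of the exchanged segment, whose borders the labels leave out. They were singled out after their values were seen. Slc22a7 (OAT2), an organic anion transporter, had 2 tested probe sets at +0.23 (SE 0.22) and +0.093 (SE 0.43). Its brighter probe set read 186.4, 159.1 and 210.5 in Dahl S samples 1 to 3 and 174.0, 268.6 and 214.7 in congenic samples 1 to 3, which overlapped. Slc29a1, the equilibrative nucleoside transporter ENT1, read 93.9 to 121.1 in the Dahl S samples and 102.7 to 107.7 in the congenic samples (+0.034, SE 0.22). Neither passed (limma adjusted p = 0.9997 for both genes).

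Regulators of these genes were read from a list of 18, of which 12 were on the arrays and 10 tested. The list holds transcription factors and Keap1, which is not one. Keap1 was among the higher genes by its brightest tested probe set (+0.11), while its other tested probe set was at -0.25. Of the 10, 6 were higher and 4 lower, with a median of +0.023, and limma called 0. The smallest unadjusted p values were those of Ppara, the fatty acid receptor (+0.62, SE 0.47), and Ybx1, a Y-box protein (+0.29, SE 0.37), on the higher side. On the lower side, by brightest tested probe sets, they were those of Nr1h4, the bile acid receptor FXR (-0.36, SE 0.51), and Rxra. Rxra, the partner of many nuclear receptors, was at -0.086 (SE 0.16), and its other tested probe set at +0.32. Dimmer probe sets of Keap1 and Arnt on the lower side had smaller unadjusted limma p values (0.339 and 0.355).

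The tissue label was read against markers. Of 19 proximal tubule markers 17 were on the arrays and all 17 were tested, with 15 higher and 2 lower in the congenic strain (median +0.14), and limma called 0. Their summed signal was 65560 to 69930 in the Dahl S samples and 67910 to 80080 in the congenic samples, and the brightest was Miox, the inositol oxygenase of the proximal tubule, at 21966.1 to 27276.7. The members' median of +0.15 stood beside this +0.14, and the part of the amount of tubule in it was not tested. That +0.15 is the value of the dim Abcb1a probe set (SE 0.48), which changed sign when Dahl S sample 3 or congenic sample 2 was left out. With the filter at the 60th percentile, which leaves the 5 uptake carriers, the members' median was +0.11. Medians of the other lists were +0.17 for thick ascending limb and distal tubule (7 tested), +0.084 for collecting duct (6), +0.65 for glomerulus (2), -0.37 for leukocytes (6), -0.11 for endothelium (6) and -0.38 for smooth muscle and stroma (6). The glomerular value rests on 2 genes, of which Podxl, the podocalyxin of podocytes, was the brighter. Podxl read 266.1, 277.1 and 55.6 in Dahl S samples 1 to 3 and 363.6, 289.5 and 365.7 in congenic samples 1 to 3, and without Dahl S sample 3 its difference went from +1.08 to +0.31 and the list median to +0.31. For tissues that could adhere or contaminate the medians were -0.44 for red blood cells (5 tested), +0.072 for hepatocytes (3), +0.13 for adrenal (2) and +0.22 for fat (2). The last 3 rest on Apoc3, Apoa1 and Ttr of 7 hepatocyte genes on the arrays, Th and Cyp21a1 of 5 adrenal genes, and Lep and Lpl of 6 fat genes. The other genes of these lists, among them Alb, Star and Adipoq, were under the filter and not tested. The red blood cell value turned to +0.12 without Dahl S sample 3, in which Hba-a1, an alpha globin, read 36676.3 against 5917.3 to 11704.4 in the other samples. Of the 7 tested tubular injury genes 6 were lower, with a median of -0.44, where 48.9% of all tested genes were higher. The unadjusted limma p was under 0.05 for 3 of these 7 and for 3 of the 6 smooth muscle and stroma genes. It was so for 1 of the 6 leukocyte genes and for 0 in each other list, against 2.49% of all tested probe sets. The counts are of genes by brightest tested probe set, whereas that share is of probe sets. The lists were chosen with earlier results of these data known, so the counts are no support for a difference. The brightest gene was Spp1 (-1.04, SE 0.21) for tubular injury and Dcn (-0.69, SE 0.17) for smooth muscle and stroma. In none of these lists did limma call a gene at the adjusted threshold.

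The genes whose signals followed each member most closely over the 6 samples were found by Pearson correlation of log2 signal across 8168 genes, as a description of these libraries, which share their scaling and the split by sample number. They were Ctnnbl1 and Dnajb2 for Slc22a2 (r = 0.9942 and 0.9865), Churc1 and Copg2 for Slc22a5 (0.9984 and 0.9944), and Madd and Nrdc for Slc22a6 (0.9952 and 0.9867). For Slc22a8 they were Aimp1 and Aplp2 (0.9977 and 0.9934), and for Slco1a1 Lrrc4b and Nudcd1 (0.9961 and 0.9953). For Abcc2 they were Fam216a and C7h8orf82 (0.9918 and 0.9818), and for Abcb1a Wdr24 and Naprt (0.9817 and 0.9787). With 6 samples such values are common: r was over 0.9 for 315 genes with Slc22a5, 263 with Slc22a8 and 33 to 88 with the other tested members.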

How the data were processed

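Kidney total RNA of 6 samples, 3 per strain, had been hybridised to 3 array types each, 18 arrays in all. Groups and sample numbers come from the titles. The authors deposited 1 linear intensity per probe set and array. Judged by the values, they had scaled each array to a mean near 150 after trimming 2% at each end. No label names the summarising software. Values were used without further scaling.

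The 59 control probe sets of each array type were left out, leaving 26202, of which 18178 had 1 symbol, 391 several and 7633 none. A floor was set at the 10th percentile of each type before log2 was taken. Probe sets under the 40th percentile of mean log2 signal were not tested. Congenic and Dahl S samples were fitted with limma 3.58.1 (R 4.3.3; lmFit, eBayes with an intensity trend), each array type on its own, with Benjamini-Hochberg adjustment over all 15721 tested probe sets. The fit was tested on simulated data. A gene is read by its brightest tested probe set. Named genes are the members, the 2 genes with the smallest p per direction of the wider and regulator lists, and the 2 closest correlates. The brightest gene is named for the proximal tubule, glomerulus, red blood cell, smooth muscle and stroma, and tubular injury lists, and not for the other marker lists. Any other gene named was chosen after its values were seen. Members and lists were chosen with earlier results of these data known. Sequences are from RefSeq (GRCr8); protein sequences were not used here. Figures were drawn with matplotlib 3.10.9.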

Additional observations from a re-analysis of the deposited data

How the results depend on the processing

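Under each alternative limma called 0 probe sets and 0 transporter probe sets: no floor or a floor at the 25th percentile, no filter or one at the 60th percentile, quantile or median scaling, eBayes without trend or robust, the sample number as a block, a term for the samples numbered 1, those samples left out, any single sample left out, p-values adjusted by array type, and an adjusted p of 0.1. The median difference of the tested transporter probe sets ranged from +0.13 (without Dahl S sample 3) to +0.24 (without congenic sample 1) when samples were left out, and was +0.11 to +0.20 under the other alternatives. The number of transporter genes higher in the congenic strain ranged from 4 to 7 when samples were left out, with 4 without congenic sample 3. Of 110 single-gene values under an alternative 8 changed sign, each on leaving out 1 sample. The 110 include values that could not change and are no measure of stability. These are the values with the block, with the term for the samples numbered 1, and with the mean of a gene's tested probe sets. The first 2 leave a balanced difference as it is, and each tested member had 1 tested probe set. Over the samples left out Slc22a5 ranged from -0.18 to +0.25 and Slc22a8 from -0.077 to +0.12. Slc22a2 ranged from -0.068 to +0.24 and Abcb1a from -0.16 to +0.45. With the filter at the 60th percentile Abcc2 and Abcb1a were not tested. Deviations of samples with the same number correlated at 0.45, 0.077 and 0.18 for numbers 1, 2 and 3, so the numbers were not taken as pairs. The main fit has no term for the samples numbered 1, so their shared deviation stays in its SEs and intervals. A replicate block by number cannot change the differences or their median, since each number occurs once per strain. It changed the p-values: 819 tested probe sets had an unadjusted limma p under 0.05, against 391 in the main fit, and limma called 0. With the term for the samples numbered 1 there were 704 such probe sets, and limma again called 0. With single samples left out (added after the data were seen), the list medians ranged from -0.79 to +0.12 for red blood cells, -0.23 to +0.018 for endothelium, -0.11 to +0.11 for hepatocytes, -0.048 to +0.42 for adrenal and -0.021 to +0.15 for the regulators, and those of the other lists kept their sign. Low signal limits what can be said of Abcc2, Abcb1a and Abcb1b.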

Other observations

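Hnf4a, a nuclear receptor of proximal tubule cells that acts on several of these transporter genes, had 5 tested probe sets that differed between the samples by number rather than by strain, chosen for mention after their values were seen. In each of the 5 both samples numbered 1 had the highest signals, an order seen in 15.2% of all tested probe sets. The probe set with the largest split on type C read 239.5 and 274.5 in the samples numbered 1 and 54.9 to 139.3 in the others, and 1 on type A read 498.7 and 559.4 against 152.8 to 263.0. The brightest read 2296.1 and 2506.1 against 2032.8 to 2211.4. This is the opposite order to that of Slc22a5 and Slc22a8, and both go with the beta-actin ratio, whose part was not tested. Strain differences of the 5 Hnf4a probe sets ran from -0.10 to +0.43 log2.

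Several carriers of the wider list were under the filter level in all probe sets. Examples chosen after their values were seen are Slc22a3 (2.2 to 18.1), the organic cation transporter OCT3, Abcb11 (6.7 to 16.5), the bile salt export pump of the liver, and Slc10a1 (1.8 to 12.0), the bile acid uptake carrier of hepatocytes.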
